A study of Mus musculus with 9 samples.

Results

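Integrins are the adhesion receptors through which leukocytes hold on to vessel walls, to other cells and to matrix. The 9 subunit genes described here are Itgam, Itgax, Itgal and Itgb2 (CD11b, CD11c, CD11a and their shared beta chain CD18), Itga4 and Itgb7, and Itga5, Itga6 and Itgb1. They were found by symbol in the deposited expression table, where each of the 9 matched 1 of 59445 features. Their transcripts were measured by RNA sequencing in F4/80+ CD11b+ cells sorted from livers of male C57BL/6 mice, with 4 MAGL fl/fl controls (libraries S1, S3, S4 and S5) and 5 MAGL Mye-/- mice (S8, S9, S10, S11 and S12). MAGL is monoacylglycerol lipase, encoded by Mgll, which hydrolyses the endocannabinoid 2-arachidonoylglycerol. All mice of both genotypes had received 1 intraperitoneal dose of the hepatotoxin CCl4 24 hours earlier, labelled as 0.6 mg/kg. The controls carry the floxed allele, and the labels do not name the Cre line that acts in Mye-/- mice. Controls were 11 weeks old, and 3 of the Mye-/- mice were 10 weeks old (S9, S10 and S11) and 2 were 11 weeks old (S8 and S12), so age and genotype overlap. No untreated mice are part of the comparison, so it speaks to genotype during injury and not to the injury itself.

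An integrin is a dimer of 1 alpha and 1 beta chain, and the pair sets what it binds. Chains that pair with Itgb2 are found on leukocytes: with Itgal they form LFA-1, which binds ICAM adhesion molecules on endothelium, with Itgam they form Mac-1 or complement receptor 3, which also binds fibrinogen and opsonised particles, and with Itgax they form complement receptor 4. Itga4 pairs with Itgb1 to bind VCAM-1 and fibronectin, or with Itgb7 to bind MAdCAM-1, Itga5 with Itgb1 is the classical fibronectin receptor, and Itga6 with Itgb1 binds laminin. In the injured liver such receptors are known for the arrest and migration of monocytes and for the uptake of opsonised debris.

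The member genes lie on chromosomes 2, 7, 8, 10 and 15. In the deposited table the features of Itgam (chromosome 7, 128062640 to 128128162, mm10) and Itgax (chromosome 7, 128129546 to 128150657) are plus-strand neighbours 1.38 kb apart. GENCODE ends Itgam at 128118491, 9.67 kb before the end of that feature, so the genes themselves lie farther apart. Itgal (chromosome 7, 127296260 to 127335137) lies 727.5 kb before Itgam. The upstream sequences of this neighbouring pair are shown because its members lie side by side and differed widely in level (values below). They are the 150 bases before the transcription start in RefSeq's annotation of GRCm38.p6, plus strand, at chr7:128062490-128062639 for Itgam and chr7:128129400-128129549 for Itgax. Capitals mark GAGGAA or its reverse complement TTCCTC, letters that the myeloid factor PU.1 and other ETS factors can bind.
Itgam: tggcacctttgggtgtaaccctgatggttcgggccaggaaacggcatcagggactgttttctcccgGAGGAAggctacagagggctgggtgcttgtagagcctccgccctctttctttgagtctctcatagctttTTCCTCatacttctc
Itgax: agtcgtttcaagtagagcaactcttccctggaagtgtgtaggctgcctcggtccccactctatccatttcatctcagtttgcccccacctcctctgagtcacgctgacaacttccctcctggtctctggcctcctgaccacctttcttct
In the 250 bases before the start, Itgam held 2 such matches and Itgax 0, and 23.3% of 32851 mouse promoters searched the same way on both strands held at least 1. A match describes the letters only. Of the 9 members, 6 had an entry in the promoter table. In the same 250 bases, Itga5 and Itgb1 held 1 match each, and Itga4 and Itgb7 held 0. Whether matches go with level was not tested.

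Library totals ran from 33383559 to 46489349 reads. The labelled cell type showed in its markers: the 7 macrophage genes summed to 311659 to 498334 normalized reads in the controls and 246394 to 308549 in Mye-/-. The feature that Lyz2 shares with Lyz1 made up most of that sum (221530 to 422118 against 143570 to 204782). Its adjusted p was 0.218 with limma, 0.086 with edgeR and 0.000154 with DESeq2, which thus called it lower in Mye-/-, and the other 6 genes had a mean log2 value that was higher in Mye-/-, among them Csf1r, the receptor of colony-stimulating factor 1, at 47102 ± 7880 for controls (SD, n = 4) and 53808 ± 8296 for Mye-/- (SD, n = 5). Monocyte markers were as abundant (6 genes, 259297 to 488021). Neutrophils also carry Itgam and Itgb2, and their 9 markers summed to 28355 to 49351 in the controls and 14887 to 38965 in Mye-/-. Of these 9, only 3 had a mean of at least 500, and 4 were at 0 in 5 or more libraries. The part of either cell type in the integrin values was not tested. Markers of resident Kupffer cells were nearly absent (7 genes, 7.16 to 512 in the controls and 237 to 1821 in Mye-/-). Lymphocyte markers, which matter here because T, NK and B cells also carry Itgal, Itga4 and Itgb7, were low: 8 T and NK cell genes summed to 84.7 to 618 in the controls and 81.2 to 689 in Mye-/-, and 5 B cell genes to 137 to 176 and 71.6 to 166. Dendritic cell markers summed to 239 to 560 and 407 to 1340, with Xcr1 and Siglech at 0 in all 9 libraries. Mgll itself was at 18.6, 0, 106.5 and 22.8 in the controls and 30.4, 46.6, 5.93, 42.7 and 0 in Mye-/-, too low to check the labels.

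None of the 9 members differed between genotypes past the threshold (limma with an intensity trend, adjusted p under 0.05 over all features tested). All 9 passed the filter on low values. In the same test 0.0196% of 15288 features were called, so a count of 0 among 9 is near the background. Fits on whole reads also called 0 members: edgeR called 0.0131% of all features. For DESeq2 the share was 1.27%, with 0.752% on the higher side in Mye-/- and 0.517% on the lower. At an unadjusted p under 0.05 there were 2 members, Itgal (higher in Mye-/-) and Itgb7 (lower), where 10.5% of all features reached that level, 6.38% higher and 4.13% lower. The same 2 members reached it with DESeq2, as did 10.3% of all features. The groups overlapped for all 9 members and did not for 3.3% of all features. Of the members 6 had a higher and 3 a lower mean log2 value in Mye-/-, with a median difference of 0.03, and over all features tested 54.6% were higher, with a median of 0.06. The plot of genotype differences shows these intervals. Every p-value rests on the spread between these libraries and takes each as a separate mouse.

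**Figure D1:**
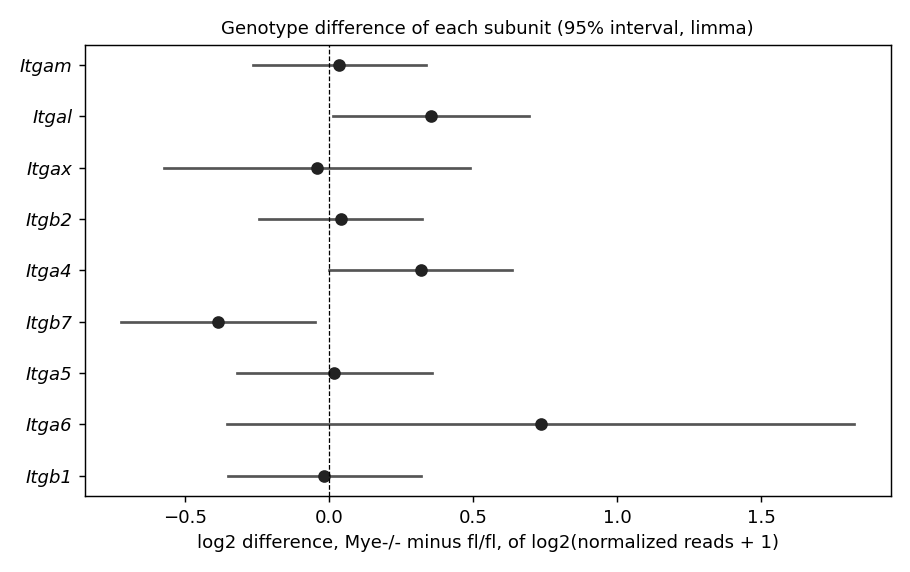
Difference of each subunit on the log2(normalized reads + 1) scale, Mye-/- (n = 5) minus fl/fl (n = 4); points are limma estimates and lines 95% intervals. The lines of Itgal and Itgb7 lie beside 0 on opposite sides before adjustment, that of Itga6 is the widest (-0.35 to 1.82), and no subunit passed after adjustment.

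Itgb2 (chromosome 10, 77530347 to 77565708), the beta chain common to the CD11 receptors, was at 49748, 49342, 57908 and 55894 normalized reads in control libraries S1, S3, S4 and S5, and at 51489, 52889, 52839, 53712 and 62526 in knockout libraries S8 to S12. The groups overlapped, with S12 the highest of all. The difference was 0.04 ± 0.13 log2 (SE), with a 95% interval from 0.84-fold to 1.25-fold (limma adjusted p = 0.941). Its within-group variation, 8.13% in the controls and 8.14% in Mye-/- (SD over mean), was the smallest of the 9 members in the controls.

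Itgam, which encodes CD11b and was thus part of the sorting gate, was at 41570, 43799, 55473 and 54114 in the controls and at 53312, 50439, 42571, 48024 and 54211 in Mye-/-. The groups overlapped almost completely, with S1 the lowest and S4 the highest library. The difference was 0.03 ± 0.14 log2 (SE; interval 0.83-fold to 1.26-fold; limma adjusted p = 0.955). Because cells were selected on CD11b protein, its transcript describes the sorted cells and cannot report how many cells in the liver carry it. The table's Itgam feature runs 9.67 kb beyond the end of GENCODE's Itgam gene, over the model Gm49368 on the same strand, and reads of the pair cannot be separated.

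Itgal, the alpha chain of LFA-1, was at 19674, 21700, 33050 and 23829 in the controls and at 25835, 26945, 31384, 32767 and 38349 in Mye-/-. Of the control libraries 3 lay below every Mye-/- library, and fl/fl S4 lay above all but S12. Controls averaged 24563 ± 5907 (SD, n = 4) and Mye-/- mice 31056 ± 5010 (SD, n = 5). The difference was 0.35 ± 0.16 log2 (SE; limma adjusted p = 0.461). It was 0.50 without fl/fl S4, 0.39 among 11-week-old mice and 0.13 without S1 and S3 (adjusted p = 0.318, 0.970 and 0.848). In these bulk samples, a change in the number of cells of a type and a change in RNA per cell cannot be told apart. T and NK cell markers summed to 84.7 to 618 in the controls and 81.2 to 689 in Mye-/-, and their part in the Itgal values was not tested.

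Itgax, which encodes CD11c, was at 1575, 1439, 939 and 1296 in the controls and at 663, 1583, 1420, 1327 and 1548 in Mye-/-. The groups overlapped, and Mye-/- S8 held the lowest value by a wide margin. The difference was -0.04 ± 0.25 log2 (SE; interval 0.67-fold to 1.40-fold; limma adjusted p = 0.970). It was 0.19 without S8 and -0.35 among 11-week-old mice (adjusted p = 0.970). Itgad, the remaining alpha chain known to pair with Itgb2, was at 0 in 6 of 9 libraries and reached 40.6 in S8.

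**Figure D2:**
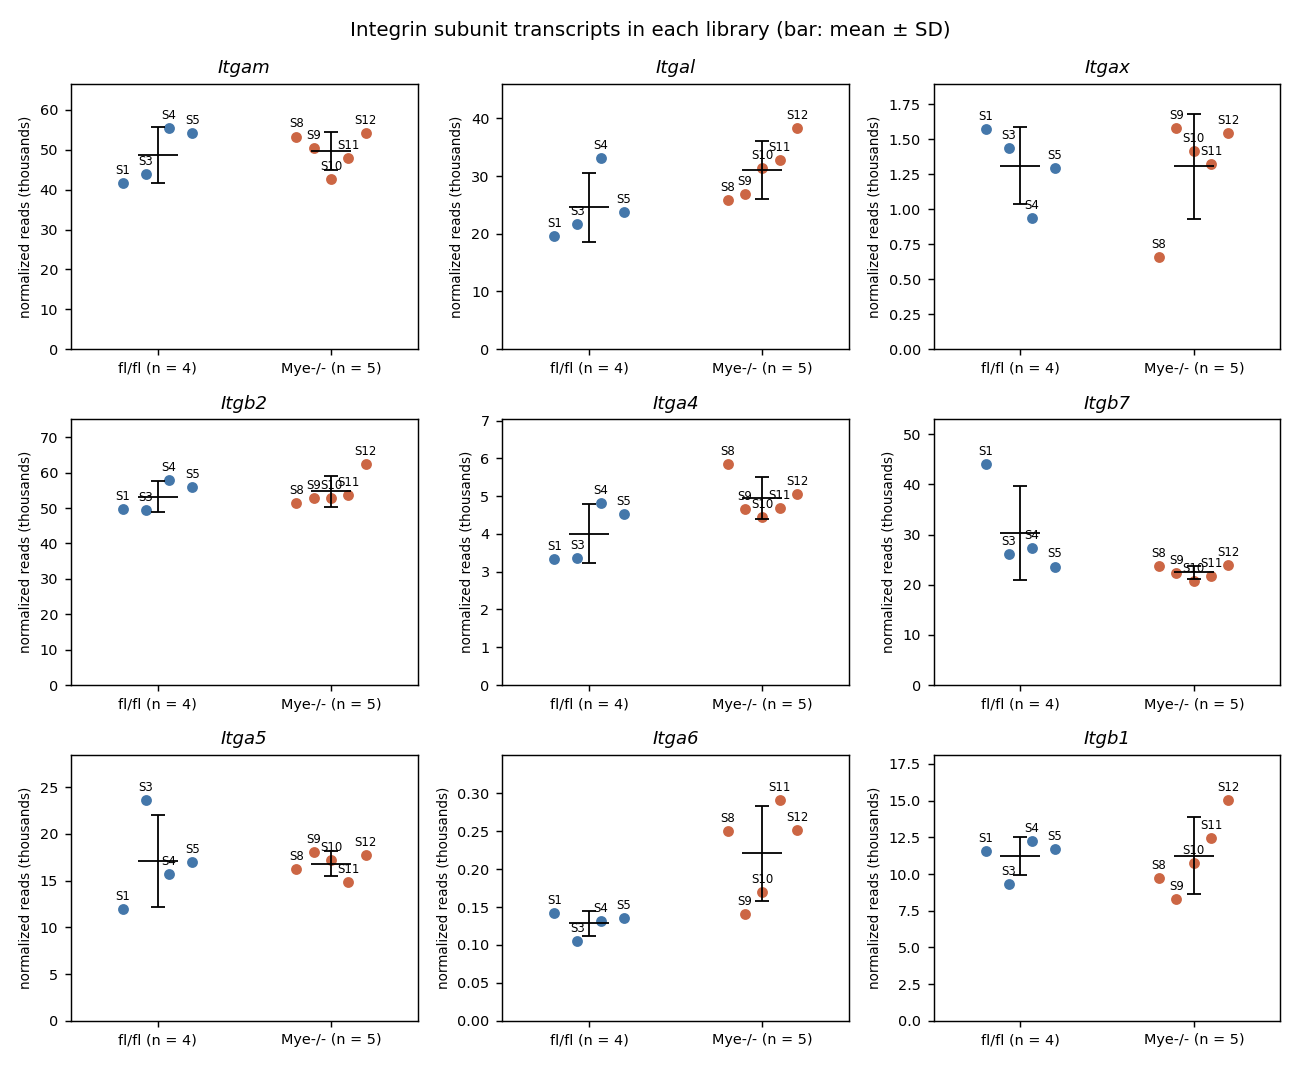
Normalized reads (linear axis from 0) of each subunit in the 4 fl/fl and 5 Mye-/- libraries, with each library named and the mean ± SD in black. The groups overlap in all 9 panels, with single libraries apart for Itgb7 (S1 at 44125), Itgax (S8 at 663) and Itga5 (S3 at 23680).

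Shares within a beta chain's partners set the alpha chains on 1 scale, as reads per kb of the longest GENCODE transcript. The table's Itgam feature runs beyond GENCODE's gene, so its share may hold reads from outside that transcript. Among alpha chains that pair with Itgb2, Itgam took 67.6% ± 2.45 for controls (SD, n = 4) and 62.9% ± 4.35 for Mye-/- (SD, n = 5), and Itgal took 30.2% ± 2.90 and 35.1% ± 4.06. Itgal's share was 28.9%, 30.0%, 34.4% and 27.8% in the controls and 30.0%, 31.6%, 38.9%, 37.2% and 38.0% in Mye-/-, libraries in the order given above. The 3 highest shares were those of S10, S11 and S12, while S8 and S9 lay within the fl/fl range. Itgal's share was 4.90 percentage points higher in Mye-/- (exact permutation test, two-sided, p = 0.0952; adjusted p = 0.259 over 7 shares), and the difference for Itgam was -4.63 points (exact p = 0.111, adjusted p = 0.259). Itgax took 2.19% ± 0.75 and 1.92% ± 0.55 (exact p = 0.540). The smallest p that regrouping 9 libraries allows is 0.00794. No share passed, here or among the member alpha chains of Itgb1.

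**Figure D3:**
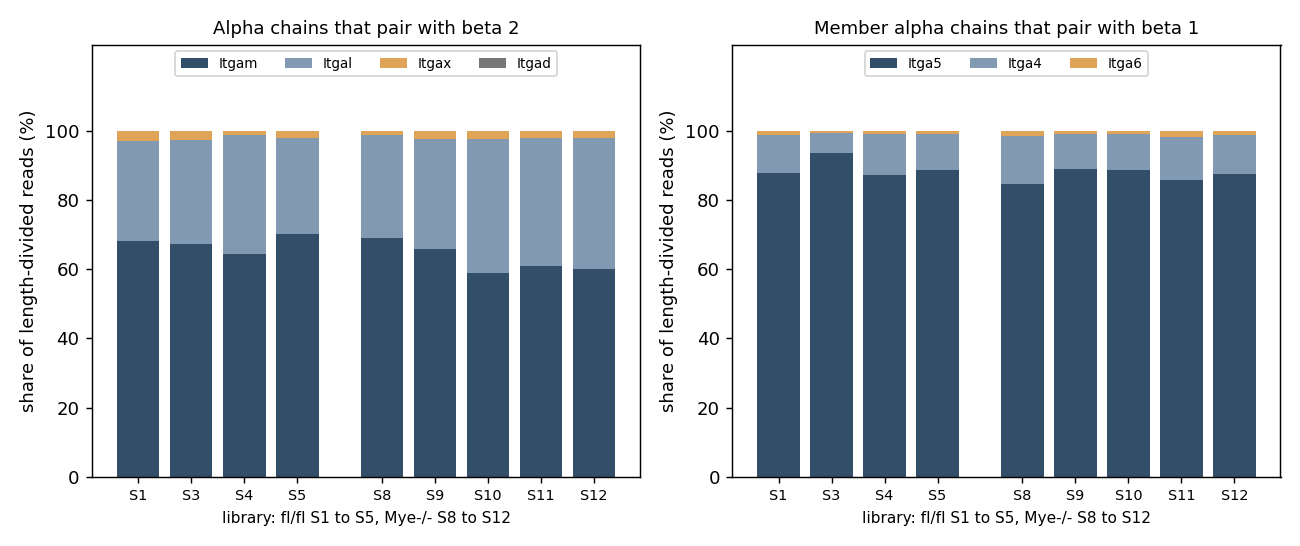
Stacked shares (%) of reads per kb of longest transcript in each library, for alpha chains that pair with beta 2 (left) and member alpha chains that pair with beta 1 (right). Itgam is the largest part in every library on the left, at 58.8% to 70.3%, and Itga5 on the right, at 84.8% to 93.6%.

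Itgb7 (chromosome 15, 102215996 to 102231936, minus strand) is best known from gut-homing lymphocytes, where it pairs with Itga4 or Itgae. It was abundant here, at 44125, 26193, 27317 and 23630 normalized reads in the controls and 23785, 22306, 20809, 21825 and 23835 in Mye-/-. The Mye-/- libraries lay close together (5.79% SD over mean) and the fl/fl libraries did not (30.8%), with S1 far above the rest. Of the fl/fl libraries 3 lay above every Mye-/- library, and S5 lay among them. Controls averaged 30316 ± 9334 (SD, n = 4) and Mye-/- mice 22512 ± 1303 (SD, n = 5), which gave -0.39 ± 0.16 log2 (SE; limma adjusted p = 0.414). Without S1 the difference was -0.19 (adjusted p = 0.596), and it was -0.30 among 11-week-old mice (adjusted p = 0.970). DESeq2 on whole reads gave -0.43 (adjusted p = 0.207). In S1 the T and NK cell markers summed to 84.7, and the B cell markers of the controls to 137 to 176. The part of such cells in the Itgb7 values was not tested.

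Itga4 (chromosome 2, 79255425 to 79333114, plus strand), the alpha chain that Itgb1 and Itgb7 share, was at 3341, 3359, 4807 and 4528 in the controls and at 5857, 4670, 4458, 4697 and 5066 in Mye-/-. S1 and S3 held the lowest values, and S4 and S5 lay among the Mye-/- libraries. Controls averaged 4009 ± 769 (SD, n = 4) and Mye-/- mice 4950 ± 552 (SD, n = 5), or 0.32 ± 0.15 log2 (SE; limma adjusted p = 0.474). Without S1 and S3 it was 0.079 (adjusted p = 0.908), and among 11-week-old mice 0.46 (adjusted p = 0.970). In the deposited table its feature overlaps 3 others: an unnamed one by 1468 bases (92.5 to 340 normalized reads), another unnamed one by 1184 bases (0 to 33.4), and that of Cerkl and Neurod1 by 1350 bases (0 to 74.3). GENCODE's Cerkl lies on the opposite strand.

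Itga5 (chromosome 15, 103344289 to 103366791, minus strand) was at 11919, 23680, 15756 and 17040 in the controls and at 16226, 18076, 17226, 14809 and 17786 in Mye-/-. Both the lowest library, S1, and the highest, S3, were fl/fl, and the Mye-/- libraries lay between them. An unnamed feature of the table covers the whole gene and was at 35.6 to 320. The Itga5 difference was 0.02 ± 0.16 log2 (SE; interval 0.80-fold to 1.28-fold; limma adjusted p = 0.982), and it was -0.14 without S1 and 0.19 without S3. Itgb1 (chromosome 8, 128685654 to 128733579), the beta chain of most matrix-binding integrins, was at 11545, 9318, 12250 and 11711 in the controls and at 9698, 8295, 10727, 12440 and 15075 in Mye-/-. Here the spread was wider in Mye-/- (23.3% against 11.5%), with S9 the lowest and S12 the highest of all libraries. The difference was -0.02 ± 0.16 log2 (SE; interval 0.78-fold to 1.25-fold; limma adjusted p = 0.981).

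Itga6 (chromosome 2, 71786928 to 71858427), a laminin-binding alpha chain, was the lowest member, at 142, 105, 132 and 135 normalized reads in the controls and at 251, 141, 170, 292 and 251 in Mye-/-. Those values come from 88 to 294 reads per library. The table's feature begins inside GENCODE's gene, which starts at 71745616. All Mye-/- libraries but S9 lay above the fl/fl range, and S9 lay just below S1. Controls averaged 128 ± 16.1 (SD, n = 4) and Mye-/- mice 221 ± 63.0 (SD, n = 5), or 0.73 ± 0.52 log2 (SE; interval 0.78-fold to 3.54-fold; limma adjusted p = 0.646). Over 23 alternative settings its difference stayed between 0.62 and 0.97 and its adjusted p between 0.436 and 0.970. The low level limits what could be detected. Among the member alpha chains of Itgb1, Itga6 took 0.74% ± 0.26 in the controls and 1.19% ± 0.40 in Mye-/- (exact permutation p = 0.111, adjusted p = 0.259), Itga5 took 89.3% ± 2.90 and 87.2% ± 1.77 (exact p = 0.230), and Itga4 took 9.95% ± 2.70 and 11.6% ± 1.47 (exact p = 0.317).

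Levels of different genes were compared per kb of longest transcript, over all 9 libraries. The table's Itgam feature runs 9.67 kb beyond GENCODE's gene, and its Itga6 feature begins inside GENCODE's. For these genes the length used may not match the reads counted. Itgb2 led with 18195 ± 1410 reads per kb (SD, n = 9), followed by Itgam with 10525 ± 1169, Itgb7 with 9683 ± 2647 and Itgal with 5395 ± 1170. Itga5 was at 3838 ± 713 and Itgb1 at 2943 ± 528, and far below them came Itga4 with 464 ± 80.6, Itgax with 324 ± 77.5 and Itga6 with 41.7 ± 15.5. The ranges of neighbours in this order did not overlap between Itgb2 and Itgam, Itgb7 and Itgal, Itgb1 and Itga4, or Itgax and Itga6. They did overlap between Itgam and Itgb7, Itgal and Itga5, Itga5 and Itgb1, and Itga4 and Itgax. Within single libraries the first of each pair was the higher in 7, 8, 8 and 7 of 9, so their order was not the same in every library. The exons of Itga4 sum to 13978 bases when all transcripts are merged, against 9767 in the longest one, and on merged exons its level was 324 and that of Itgax 273.

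**Figure D4:**
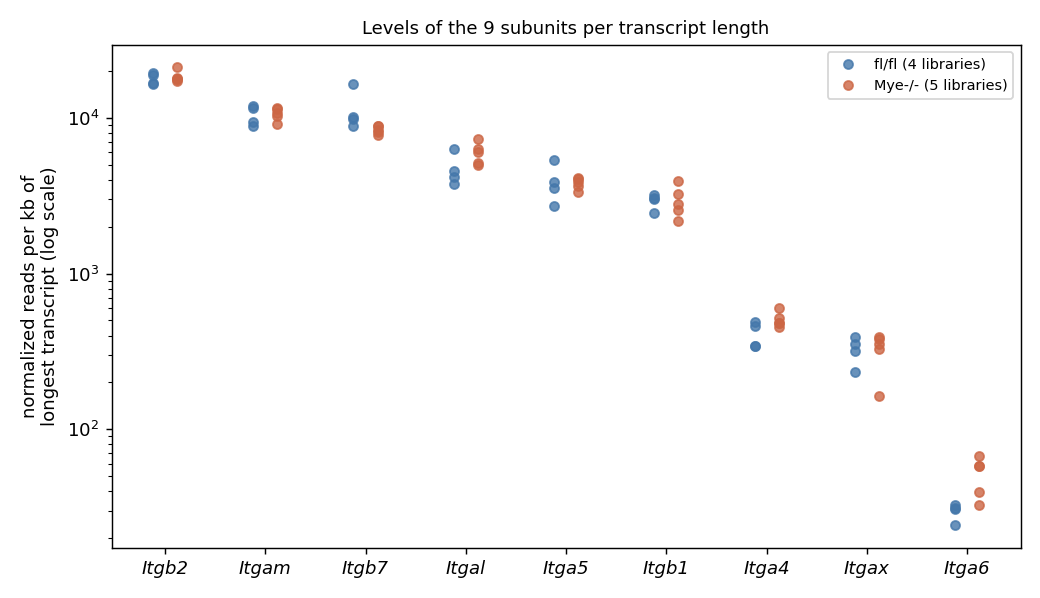
Normalized reads per kb of longest transcript (log axis) of the 9 subunits in order of their mean, each point 1 library, fl/fl in blue and Mye-/- in orange. Itgb2 lies above all others, and Itga4, Itgax and Itga6 lie well below the rest, with means of 464, 324 and 41.7.

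Partner chains were not always present in like amounts. Per kb, Itgam, Itgal and Itgax together reached 0.86 ± 0.07 of the Itgb2 level for controls (SD, n = 4) and 0.92 ± 0.03 for Mye-/- (SD, n = 5), between 0.78 and 0.95 in each library. Itga4, Itga5 and Itga6 together stood at 1.02 to 2.35 times Itgb1, and on merged exon lengths at 0.94 (S1) to 2.21 times, above 1 in 8 of 9 libraries. Itgb7 was out of proportion to both of its known partners: it exceeded Itga4 in all 9 libraries, by 14.8-fold (S8) to 48.1-fold (S1), and Itgae was at 0 in 7 libraries and at 41.8 and 25.4 normalized reads in S9 and S10. Itgam exceeded its neighbour Itgax by 22.8-fold (S1) to 69.5-fold (S8). With merged exon lengths the Itgb7 and Itgam ranges were 20.5-fold to 66.6-fold and 25.2-fold to 76.9-fold. Merged exons come from the same GENCODE models, so they do not correct for the longer Itgam feature of the table. These are transcript levels, and dimers on the surface were not measured.

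Across the 9 libraries, 7 known pairs of partner chains were tested for correlation of their log2 values. Itgal and Itgb2 had r = 0.79 (exact permutation p = 0.00944, adjusted p = 0.0660) and rho = 0.80 (exact p = 0.0138, adjusted p = 0.0484). Itgam and Itgb2 had r = 0.72 (exact permutation p = 0.0279, adjusted p = 0.0977) and the same rho and p-values for it. Only the rank correlations of these 2 pairs passed. Without the 2 libraries farthest from the median of the alpha chain, r was 0.56 for Itgal and 0.72 for Itgam, and after removing the genotype means 0.86 and 0.71. Itgax and Itgb2 had r = 0.02 (exact permutation p = 0.958) and rho = -0.18 (exact p = 0.644). The 4 other pairs had r from -0.62 (Itga4 and Itgb7, rho -0.12) to 0.44 (Itga6 and Itgb1, rho 0.45), with exact permutation p from 0.0869 to 0.684. For Itga6 and Itgb1, r was 0.72 after removing the genotype means and -0.077 without S11 and S12. The negative value of Itga4 and Itgb7 rested on S1 and S3, without which r was 0.33. All genes of a library share its size factor, whose part in these correlations was not tested.

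**Figure D5:**
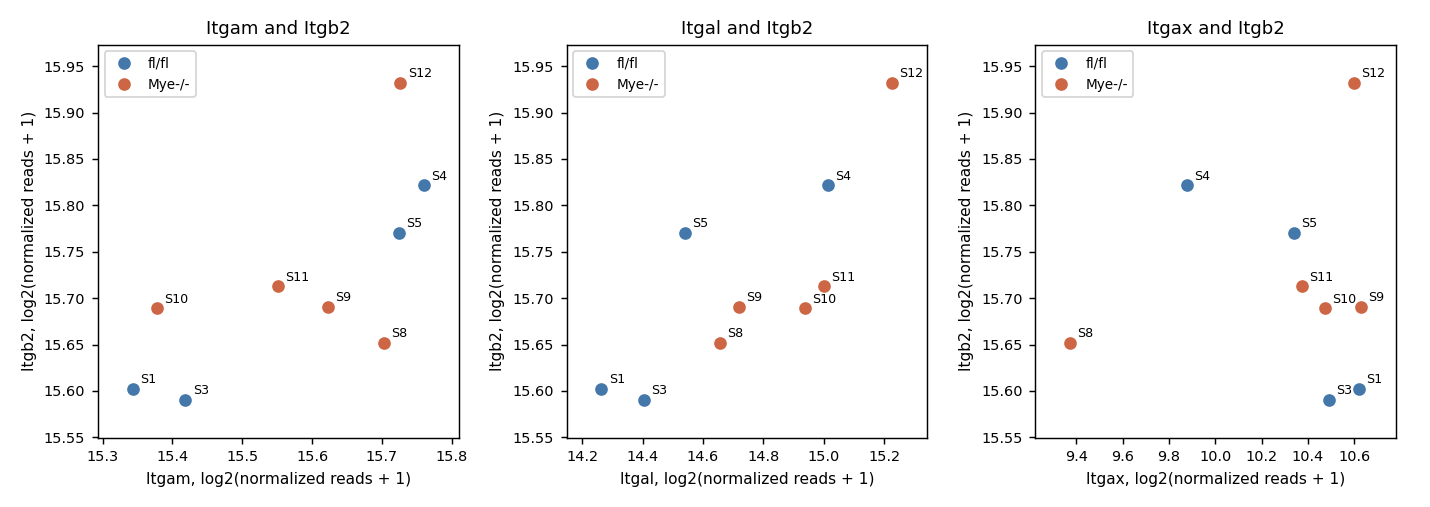
Itgb2 against its alpha chains Itgam, Itgal and Itgax, as log2(normalized reads + 1), each point 1 named library. Over all 9 libraries, Itgam and Itgal rank with Itgb2 (rho = 0.80 each) and Itgax does not (rho = -0.18).

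Of the 17 other integrin subunits, 9 passed the filter and 0 were called. Mean log2 values were higher in Mye-/- for 8 and lower for 1, where 54.6% of all features tested were higher. Only 3 of the 9 had a mean of at least 500. Itga8 and Itgb3, named outside the naming rule, counted as higher on that scale, each with 1 control library at 0. Their mean normalized reads were lower in Mye-/-, at 67.4 against 47.4 and 98.2 against 92.4 (controls first). Itgav, which pairs with Itgb1, Itgb3 or Itgb5 and binds RGD proteins such as vitronectin, was at 1873, 2093, 2075 and 3069 in the controls and 3175, 3862, 3256, 2928 and 3021 in Mye-/-. Of the controls 3 lay below all Mye-/- ones and S5 lay among them. The difference was 0.53 ± 0.17 log2 (SE; limma adjusted p = 0.291). Itgb5 ran from 4757 to 9514 and differed by 0.03 ± 0.19 log2 (SE; adjusted p = 0.977), and the feature shared by Itga1 and Pelo by 0.02 ± 0.17 (SE; adjusted p = 0.982). Itga9 was at 128 ± 77.9 and 230 ± 203 (limma adjusted p = 0.806). Itga2b, the platelet chain, was at 0 in control libraries S3 and S4 and at most 145, in S1 (limma adjusted p = 0.512). The 6 platelet markers, Itga2b itself among them, summed to 131 to 453, with 412 in S1. Itga11 and Itgb6 were at 0 in all libraries.

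Among genes that regulate integrins or tie them to actin and kinases, 33 of 36 passed the filter and 0 were called. Mean log2 values were higher in Mye-/- for 26 and lower for 7, with a median difference of 0.09. Over all features tested 54.6% were higher, with a median of 0.06. With a mean of at least 500, 49.8% of all features were higher, and 23 of 30 genes of this list. The list mixes genes of different roles, so its counts give no direction of integrin activity, and it was not tested as a set. Syk, the kinase that signals from Itgb2 receptors through ITAM adaptors, was at 6579, 9924, 10135 and 10130 in the controls and 12404, 11765, 12995, 12772 and 12603 in Mye-/-. All 5 Mye-/- libraries lay above all fl/fl libraries, a separation seen for 3.3% of all features tested. Syk was named for its small p, and that choice favours such a separation. The difference was 0.47 ± 0.14 log2 (SE; limma adjusted p = 0.271; DESeq2 adjusted p = 0.0834), and 0.31 without S1. Pxn, the focal adhesion adaptor paxillin, differed by 0.35 ± 0.18 log2 (SE), and by 0.13 without S1. Cytip, a regulator of LFA-1 adhesion, differed by 0.26 ± 0.14 (SE), and by 0.13 without S3. The limma adjusted p-values of this pair were 0.501 and 0.541. The talin gene Tln1 and the kindlin gene Fermt3, whose products bind beta tails to activate them, are in this list and differed by -0.17 and 0.06 (limma adjusted p = 0.673 and 0.907). Both were picked for their role, outside the naming rule and with their values known.

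Of 22 ligand and counter-receptor genes 15 passed the filter, 8 higher and 7 lower, and 0 were called. Icam1, a ligand of LFA-1 and Mac-1, was at 4519, 4556, 4908 and 4399 in the controls and 5546, 5033, 6088, 5076 and 5515 in Mye-/-. The groups did not overlap, as for 3.3% of all features tested. Icam1 was named for its small p, a choice that favours such a separation. Its difference was 0.24 ± 0.13 log2 (SE; limma adjusted p = 0.510). Thbs1, which encodes the matrix protein thrombospondin 1, differed by 0.61 ± 0.23 log2 (SE; limma adjusted p = 0.354), and by 0.33 without S3. Its controls read 94935, 51475, 98434 and 147336, with S5 inside the Mye-/- range of 125596 to 157303. The fibrinogen genes Fgg and Fgb, hepatocyte products, were at 760 and 253 in Mye-/- S10, the highest library for both, and S10 also had the highest sum of hepatocyte markers (10840, against 584 to 1884 in the controls). The part of hepatocyte RNA in these 2 values was not tested. For the genotype difference their limma adjusted p-values were 0.455 and 0.545. Of 13 tetraspanins and other membrane partners of integrins all passed the filter, 8 higher and 5 lower, and 0 were called. The smallest p-values in that list were those of Bsg (-0.27 ± 0.14 log2), Cd82 (-0.60 ± 0.32) and Slc3a2 (0.27 ± 0.16), which encodes the heavy chain of CD98 (limma adjusted p = 0.523 to 0.557). The Cd82 difference was -0.33 without S1 and -0.91 without S5, and that of Slc3a2 was 0.18 without S3.

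For each member with a mean of at least 500, the genes most like it over the 9 libraries were sought among 6762 features with a symbol and such a mean, by Pearson's r of log2 values. With so many genes and 9 points, high values arise easily, and they are given as a description. Itgb7 was closest to Tagln2 and Cdc5l (r = 0.97 for both), whose values also peaked in S1. Itgal was closest to Tnfrsf1b, a receptor of tumour necrosis factor, and Fbxo18 (both r = 0.94), Itgam to Trim33 and Zfp319 (both r = 0.95), and Itgb2 to Treml4 and Tceb3 (both r = 0.93). Itgax was closest to Ehmt2 (r = 0.95) and Wdr18 (r = 0.93), Itga4 to Marf1 (r = 0.96) and the feature of Gm4349 and Arnt (r = 0.95), Itga5 to Vps41 (r = 0.97) and Ccdc174 (r = 0.92), and Itgb1 to Nsun2 (r = 0.91) and Ly9 (r = 0.90). Within the family, the member closest to Itgam was Itga4 (r = 0.76) and to Itgb1 it was Itgb2 (r = 0.73), whereas for Itga5, Itgax and Itgb7 no other member exceeded r = 0.14.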

How the data were processed

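The authors deposited a single table of signal values, reads per gene scaled by a size factor for each library. The submitters' processing notes name DESeq, STAR 2.4.0, SAMtools, Picard, FastQC and mm10. Gene models are from FAST DB, per the file headers. Counting tool, strand setting and treatment of duplicates are not given in the sources used here. Every nonzero value was a whole multiple of its column's smallest value (tolerance 0.01 reads, 100% of values), which shows the scaling in the values and returned whole reads for edgeR 4.0.16 and DESeq2 1.42.0.

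Genotypes were compared by limma 3.58.1 (R 4.3.3) on log2(value + 1), its prior variance following mean intensity. The 15288 features reaching 10 in 4 or more libraries entered. P-values are two-sided and adjusted by Benjamini-Hochberg, called under 0.05. On simulated data, with changes set in features with a mean of at least 500, the fit recovered 16.4% of 1.5-fold changes. It recovered 79.1% of 2-fold and 95.5% of 4-fold changes. Transcript lengths come from GENCODE M21 (GRCm38, the assembly of mm10). Library totals would bound the counting error only if reads were independent, and reads without molecular identifiers are not independent molecules. Of low recovered read numbers, 66.1% to 68.3% per library were even numbers, an excess whose source was not tested. Read numbers given here may thus overstate independent counts.

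All 9 members were named. From the other lists, genes with the smallest p were named: 4 regulators or adaptors, 4 ligands, 3 membrane partners and 3 other subunits. Other subunits with a mean of at least 500 were named too, as were the 2 genes most like each member. One of the genes this rule names is not reported here. Members and lists were chosen with earlier results of these data known. Alternatives covered pseudocounts, filters, scaling, limma settings, age, each library left out, and count models. Leaving out S1 and S3 together was chosen after seeing the data.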

Additional observations from a re-analysis of the deposited data

Results flagged for a closer look

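In 2 of 30 groups of values (9 members and 6 alpha chain shares in each genotype) a single library stood apart by more than Dixon's 95% critical value, and chance flags about 1 in 20 groups. Itgax was low in Mye-/- S8, at 663 normalized reads, with a gap of 0.72 of the group's range (critical value 0.71). Itgb2 was high in Mye-/- S12, at 62526, with a gap of 0.80 (critical value 0.71).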

How the results depend on the processing

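Over 23 alternatives the number of members called was 0 in each, as were those of the 4 other integrin lists, and 4 to 8 members were higher in Mye-/-. Itgal, Itga4 and Itga6 stayed higher and Itgb7 lower in every alternative. The other 5 changed sign in at least 1 alternative, and Itgax reached -0.35 when age entered the model or 10-week-old mice were left out. Both age settings gave the same difference for each member, so they are not separate checks. Without the 10-week-old mice only S8 and S12 remained of Mye-/-, and most members shared the same limma adjusted p of 0.970. Leaving out 1 library gave -0.038 to 0.10 for Itgam, -0.20 to 0.19 for Itgax, -0.14 to 0.19 for Itga5, -0.13 to 0.085 for Itgb1 and -0.0099 to 0.081 for Itgb2. Without S1 and S3, Itgam was -0.15, Itgax 0.18 and Itgb2 -0.061, and the Itgax share differed by 0.31 points. Array weights gave 0.011 for Itgax. With edgeR Itgax was 0.0064, Itga5 -0.012 and Itgb1 0.016, and with DESeq2 Itga5 was -0.024 and Itgb1 0.0036. Under the same age settings Itgb1 was 0.12, and it was 0.028 with quantile normalization. The difference in the Itgad share was -0.0084 to 0.012 points with 1 library left out. Without the 2 farthest libraries r was -0.032 for Itgax and Itgb2, -0.060 for Itga4 and Itgb1, 0.33 for Itga4 and Itgb7, and -0.077 for Itga6 and Itgb1. The cause was not tested. Over all features, limma called 3 in the main analysis and 0 to 21 across its alternatives, edgeR 2 and DESeq2 211. No paired analysis was possible because the genotypes share no replicate numbers. Depth limits Itga6 most, at 88 to 294 reads.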
